A study of Mus musculus with 9 samples.

Results

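The miR-125 family and the related miR-99/100 and miR-10 families were followed in mouse osteoblastic cells given alpha particles. The members were 8 mature miRNAs of the 1881 mouse miRNAs on the array, taken by their names in the scanner files: mmu-miR-125a-5p, mmu-miR-125a-3p, mmu-miR-125b-5p, mmu-miR-99a-5p, mmu-miR-99b-5p, mmu-miR-100-5p, mmu-miR-10a-5p and mmu-miR-10b-5p. The species prefix is mostly left out from here on. Both arms of miR-125a were included so that the strands could be compared. The cells had been grown from the bone marrow of male C57BL/6 mice aged 8 weeks, by 7 days of culture and 7 further days in osteoblast differentiation medium. That medium held dexamethasone, β-glycerol phosphate and L-ascorbic acid 2-phosphate for every dose. They received 0, 0.5 or 1 Gy, given at 0.22 Gy per minute, and each dose was measured on 3 one-colour Agilent miRNA arrays. All groups shared strain, sex, age and culture. Whether the 3 samples of a dose were separate animals or cultures is not stated in the labels, and the p-values therefore rest on a spread that may be technical. How long after irradiation the RNA was taken is likewise not given there.

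A miRNA guides a silencing complex to messenger RNAs, mainly through the seed, the short stretch of bases near its 5′ end, and miRNAs with the same seed share most of their predicted targets. The miR-99/100 and miR-125 genes lie close together in the mouse genome with a let-7 gene between them, in groups that are each known to give a common precursor transcript. miR-125b is known to hold back osteoblast differentiation in mouse stromal cells and to target p53 messenger RNA in human and zebrafish cells. miR-99 and miR-100 are known to target mTOR in human cells, and miR-10a and miR-10b are encoded inside Hox gene clusters.

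The mature sequences, from RefSeq with the GRCm38.p6 assembly, are shown because the seeds define the families and because the closest members differ by single bases that an array probe has to tell apart. All 8 members were matched. Capitals mark the seed, bases 2 to 8 counted from the 5′ end. miR-125b-5p is made from a gene on chromosome 9 and from another on chromosome 16.
miR-125a-5p: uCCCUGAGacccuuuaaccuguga
miR-125b-5p: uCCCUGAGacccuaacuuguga
miR-125a-3p: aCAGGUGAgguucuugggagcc
miR-99a-5p: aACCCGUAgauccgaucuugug
miR-100-5p: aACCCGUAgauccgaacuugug
miR-99b-5p: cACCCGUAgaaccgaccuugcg
miR-10a-5p: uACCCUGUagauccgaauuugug
miR-10b-5p: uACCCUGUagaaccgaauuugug
miR-125a-5p and miR-125b-5p share their first 13 bases and the seed. miR-99a-5p, miR-99b-5p and miR-100-5p share another seed, and miR-10a-5p and miR-10b-5p have a seed of their own. With positions counted from the 5′ end, miR-99a-5p and miR-100-5p differ by a single base (U16A) over 22 bases, and miR-10a-5p and miR-10b-5p by a single base (U12A) over 23. miR-99b-5p differs from miR-99a-5p at 4 bases (A1C, U11A, U16C and U21C from miR-99a-5p to miR-99b-5p). Although miR-10a-5p and miR-100-5p have different seeds, they share a run of 11 bases further along, so that the 2 families are similar outside the seed. The array files used here give probe names without probe sequences, and how well a probe separates such neighbours was not tested.

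miR-125a-5p and miR-125a-3p are cut from the same hairpin on chromosome 17. In the 68-base hairpin below, the capitals mark the 5p arm and then the 3p arm.
Mir125a hairpin: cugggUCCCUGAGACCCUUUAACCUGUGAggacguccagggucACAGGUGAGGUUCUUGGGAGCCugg

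Between 144 and 234 miRNAs were detected per array. Detection of a probe required 50% or more of its usable spots to be well above background in the scanner software, and detection of a miRNA required 1 such probe. Array 1 of 0.5 Gy and array 1 of 1 Gy had a high background, with additive errors of 19.4 and 11.2 intensity units, against 1.60 to 2.83 on the other 7 arrays. Array 1 of 0 Gy stood apart in brightness: the 75th percentile of the 45 probes used for scaling was 1462 units there and 618 to 815 on the other 8 arrays. Of 8 stromal and mesenchymal markers 6 were detected on some array and none on all 9, with miR-143-3p and miR-145a-5p on none. Among 6 myeloid markers there were 2 with any detection (miR-223-3p on 5 arrays, miR-342-3p on 4), and of 2 lymphoid markers miR-181a-5p on all 9. No erythroid, platelet or endothelial marker was detected on any array.

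Signal above background came mainly from the miR-125 members. Of the 8 members 2 were detected on all 9 arrays (miR-125a-5p and miR-125b-5p), miR-125a-3p on 6, miR-99b-5p on 5 and the other 4 on none. Each 5p member had 2 probes of 15 spots per array, and miR-125a-3p had 4 probes of 7 or 8 spots. Probes of the same miRNA did not perform alike. Probe A_54_P2282 of miR-125b-5p was above background on 134 of 134 usable spots, and the other probe of this miRNA, A_54_P2281, on 90 of 135. The spots of A_54_P2281 that were not marked well above background lay on the 3 arrays numbered 1, where their mean signal was nonetheless positive. For miR-125a-3p, probe A_54_P2280 was above background on 42 of 62 spots, and its 3 other probes on 4 of 67, 5 of 61 and 11 of 63.

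**Figure D1:**
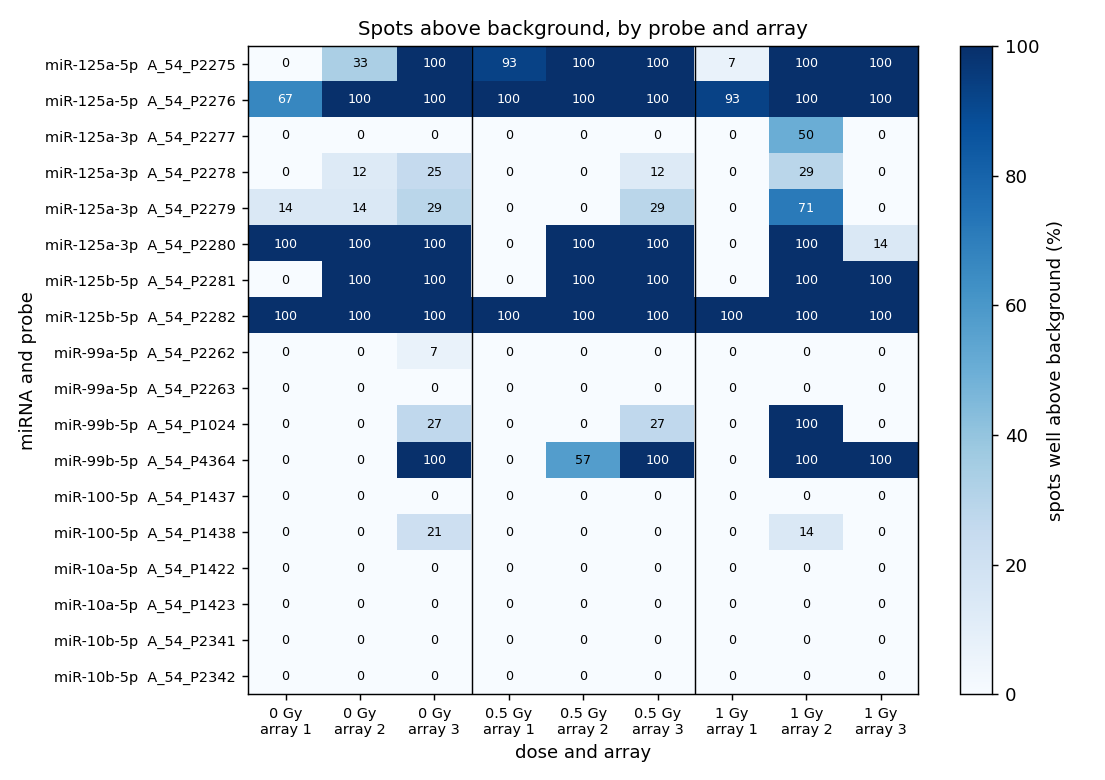
Share of usable spots well above background, in percent, for each of the 18 member probes (rows, by miRNA) on each array (columns, by dose). Probe A_54_P2282 of miR-125b-5p is at 100% on every array, the probes of miR-10a-5p and miR-10b-5p are at 0% on every array, and the miR-99b-5p probe A_54_P4364 is above background on array 3 of 0 Gy and on arrays 2 and 3 of both irradiated doses.

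The single-base neighbours were at or near the limit of the array. miR-10a-5p and miR-10b-5p had 0 of 266 usable spots above background each, miR-99a-5p 1 of 264 and miR-100-5p 5 of 262. The 5 spots of miR-100-5p lay on array 3 of 0 Gy and array 2 of 1 Gy. Levels are given as log2 of the scaled signal, with a floor of 3.52, at which no order can be read. mmu-miR-10a-5p and miR-10b-5p were at the floor on 7 of 9 arrays. The exceptions were the arrays of high background: on array 1 of 0.5 Gy they read 6.57 and 6.18, whereas array 1 of 1 Gy gave 5.38 and 4.82. No spot of theirs was marked above background there, so these values are not read as levels of the miRNA, and no fold is given for these 4 members. Not well above background does not mean that the miRNA was absent.

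mmu-miR-125a-5p, known in mouse for supporting the survival of blood stem cells, read 3.63, 4.77 and 6.71 on arrays 1, 2 and 3 of 0 Gy. Its values were 8.01, 6.45 and 6.72 on the arrays of 0.5 Gy and 7.11, 6.42 and 6.57 on those of 1 Gy. Arrays 1 and 2 of 0 Gy lay below every irradiated array, while array 3 of 0 Gy lay among the irradiated arrays, so that the doses overlapped. Means were 5.04 ± 1.56 at 0 Gy, 7.06 ± 0.84 at 0.5 Gy and 6.70 ± 0.36 at 1 Gy (SD, n = 3 each). Both of its probes had this order, with scaled signals of 7.81, 19.1 and 74.7 at 0 Gy for A_54_P2276, and of 4.59, 8.16 and 30.0 for A_54_P2275. The 3.63 on array 1 of 0 Gy lay close to the floor of 3.52. There 10 of 15 spots of A_54_P2276 and 0 of 15 spots of A_54_P2275 were above background. At 0.5 Gy A_54_P2276 read 137, 61.0 and 75.3, and at 1 Gy 77.2, 58.2 and 66.2. At each irradiated dose the highest of these readings came from array 1, the array of high background, where 15 of 15 spots of this probe were above background at 0.5 Gy and 13 of 14 at 1 Gy. The other probe, A_54_P2275, read 60.5 on array 1 of 1 Gy with 1 of 15 spots above background, and this signal is part of the sum for the miRNA there.

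mmu-miR-125b-5p also varied most at 0 Gy, where arrays 1, 2 and 3 read 5.51, 7.35 and 9.29. The arrays of 0.5 Gy read 8.46, 9.10 and 9.26, and those of 1 Gy 8.18, 9.24 and 9.34. The 0 Gy arrays thus held the lowest value of all and, with array 3, a value close to the highest, so that the doses overlapped. Means were 7.38 ± 1.89 at 0 Gy, 8.94 ± 0.43 at 0.5 Gy and 8.92 ± 0.65 at 1 Gy (SD, n = 3 each). Array 1 was the lowest of its dose at all 3 doses, whereas for miR-125a-5p array 1 was the highest of both irradiated doses.

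miR-99b-5p, encoded beside miR-125a, was measured only in part. It was detected on array 3 of 0 Gy at 4.64, on arrays 2 and 3 of 0.5 Gy at 4.01 and 4.55, and on arrays 2 and 3 of 1 Gy at 5.07 and 4.47. Arrays 1 and 2 of 0 Gy were at the floor. On array 1 of 0.5 Gy and of 1 Gy it read 5.89 and 4.59, without being detected. It was therefore not detected on all arrays of any dose and was not among the 134 miRNAs tested. With array 1 of both irradiated doses left out it entered the test through those doses, where it read higher, so that its values carry no weight as support. It then differed by 0.38 (SE 0.53) at 0.5 Gy and by 0.88 (SE 0.53) at 1 Gy against 0 Gy, with limma adjusted p of 0.883 and 0.590.

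miR-125a-3p, the opposite arm of the hairpin, ran the other way. The arrays of 0 Gy read 5.62, 6.06 and 5.48, those of 0.5 Gy 5.29, 5.18 and 5.17, and those of 1 Gy 4.15, 5.48 and 4.52. Every irradiated array lay below every 0 Gy array, although array 2 of 1 Gy and array 3 of 0 Gy both round to 5.48. Means were 5.72 ± 0.30 at 0 Gy, 5.21 ± 0.066 at 0.5 Gy and 4.72 ± 0.69 at 1 Gy (SD, n = 3 each). The probe that carried the signal, A_54_P2280, gave scaled signals of 32.2, 48.9 and 21.7 on the arrays of 0 Gy, 12.9, 19.3 and 17.1 on those of 0.5 Gy, and 13.1, 21.4 and 7.94 on those of 1 Gy. Of these, array 1 of both irradiated doses and array 3 of 1 Gy were not above background. The member passed the detection filter through 0 Gy alone, the dose at which it was highest, so that its lower values among the tested miRNAs carry no weight as support.

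**Figure D2:**
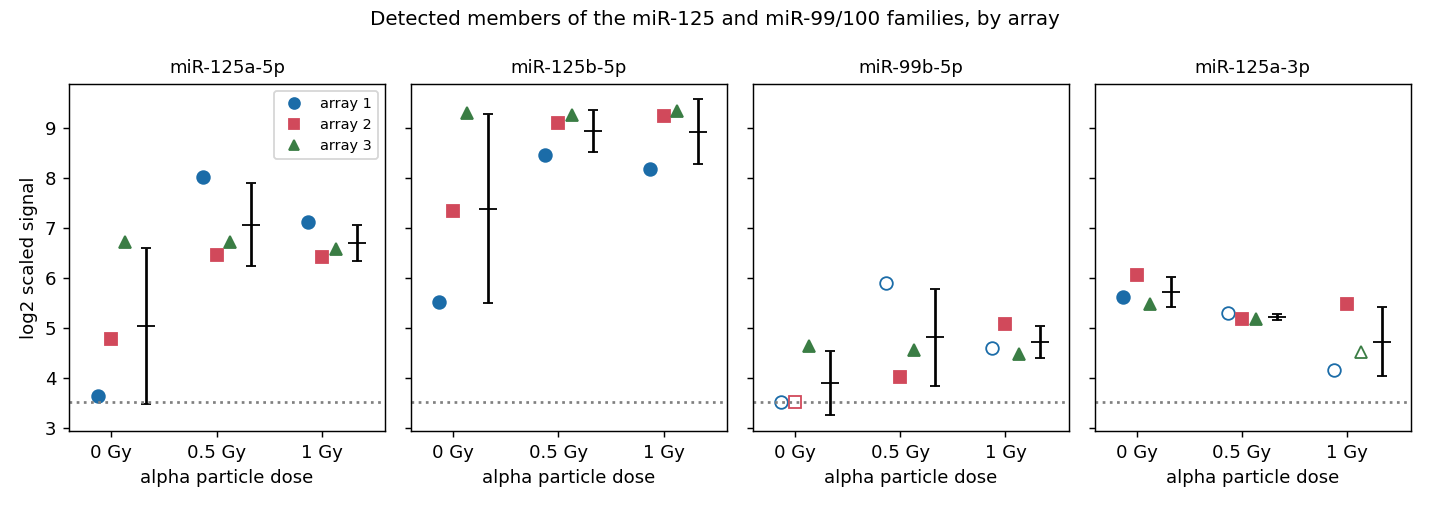
log2 scaled signal of the 4 members detected on any array, by dose, with a point for each array (shape and colour give the array number, open points were not detected), the mean ± SD of 3 arrays beside them and the floor of 3.52 as a dotted line. The 3 arrays of 0 Gy are spread from 3.63 to 6.71 for miR-125a-5p and from 5.51 to 9.29 for miR-125b-5p. The irradiated arrays lie between 6.42 and 8.01 for miR-125a-5p and between 8.18 and 9.34 for miR-125b-5p. miR-125a-3p is highest at 0 Gy.

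The question of the comparison of 0.5 Gy with 0 Gy was which miRNAs differ after the lower dose. miR-125a-5p averaged 7.06 at 0.5 Gy and 5.04 at 0 Gy, a difference of 2.02 on the log2 scale, or 4.07-fold (SE 0.76, 95% interval 0.32 to 3.73). miR-125b-5p averaged 8.94 at 0.5 Gy and 7.38 at 0 Gy, a difference of 1.56, or 2.95-fold (SE 0.84, interval -0.33 to 3.45). miR-125a-3p averaged 5.21 at 0.5 Gy and 5.72 at 0 Gy, a difference of -0.51 (SE 0.46, interval -1.53 to 0.51). In limma, fitted over 134 miRNAs that every array of some dose detected, 0 of the 3 tested members passed at an adjusted p of 0.05, and 0 of all 134 did (0%). Their adjusted p was 0.561 each. miR-125a-5p had the smallest unadjusted p of all 134 (0.0250), and 2 of 134 miRNAs (1.49%) had one under 0.05. miR-125a-3p was 1 of 4 miRNAs (2.99%) with every array of 0.5 Gy below every array of 0 Gy, and no member or other miRNA (0%) had them all above. Of the 3 members 2 had a difference above 0, against 38 of 134 miRNAs (28.4%), and miR-125a-3p one below 0, against 96 of 134 (71.6%). Of the 134, 40 were detected on all arrays of an irradiated dose. The others passed the filter through 0 Gy alone, which favours differences below 0. These shares and the median of all 134 are therefore no neutral base for the members. The median difference was -0.47 over all 134 miRNAs and 1.56 over the 3 members. It was 0.0087 over the 28 miRNAs detected on all 9 arrays, to which miR-125a-5p and miR-125b-5p belong. Relative to the median of all 134, miR-125a-3p differed by -0.044.

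These differences rested on which arrays entered. Leaving out array 1 of 0 Gy, where miR-125a-5p read near the floor, gave 1.32 for miR-125a-5p and 0.62 for miR-125b-5p. Leaving out array 3 of 0 Gy gave 2.86 and 2.51. With array 1 of 0.5 Gy removed, the values were 1.55 for miR-125a-5p and 1.80 for miR-125b-5p. Within the slide that held 6 of the arrays, 2 of each dose, the differences were 2.20 and 1.46, and with slide as a block 2.11 and 1.42. Scaling on all probes gave 0.76 and 0.29, quantile normalization 0.49 and 0.98. Neither miRNA passed the test in any of these fits. The difference of miR-125a-3p turned to 0.45 after normexp background correction, which added an offset of 50 units to every spot.

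The comparison of 1 Gy with 0 Gy asked the same of the higher dose, against the same 0 Gy arrays, so that its values are not independent of those above. miR-125a-5p averaged 6.70 at 1 Gy and 5.04 at 0 Gy, a difference of 1.66 or 3.16-fold (SE 0.76, interval -0.050 to 3.37). miR-125b-5p averaged 8.92 at 1 Gy and 7.38 at 0 Gy, a difference of 1.54 or 2.91-fold (SE 0.84, interval -0.35 to 3.43). miR-125a-3p averaged 4.72 at 1 Gy and 5.72 at 0 Gy, a difference of -1.005 (SE 0.46, interval -2.03 to 0.020). In limma 0 of the 3 members and 0 of all 134 miRNAs (0%) passed, with an adjusted p of 0.539 for each member. Unadjusted p values were 0.0557, 0.0984 and 0.0538, and 4 of 134 miRNAs (2.99%) had one under 0.05. miR-125a-3p was 1 of 10 miRNAs (7.46%) with every array of 1 Gy below every array of 0 Gy, and no member was among the 3 (2.24%) with them all above. Differences above 0 were found in 2 of the 3 members and 34 of 134 miRNAs (25.4%), and below 0 in 1 member and 100 of 134 (74.6%). The median difference was -0.49 over all 134 miRNAs, 0.14 over the 28 detected on all 9 arrays and 1.54 over the 3 members. The shares and the median of all 134 are again no neutral base, since most entered through 0 Gy alone.

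The differences of miR-125a-5p and miR-125b-5p were 0.96 and 0.61 with array 1 of 0 Gy removed, and 2.50 each with array 3 of 0 Gy removed. Leaving out array 1 of 1 Gy gave 1.46 and 1.91. Within the slide of 6 arrays they were 1.67 and 1.36. Scaling on all probes gave 0.42 and 0.30, and quantile normalization gave 0.54 and 1.25. miR-125a-3p stood at -0.72 with array 1 of 1 Gy removed and at -1.39 with array 2 of 1 Gy removed, and turned to 0.15 after normexp.

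Between the irradiated doses the members differed little against their errors. At 1 Gy against 0.5 Gy, miR-125a-5p differed by -0.36 (SE 0.76, interval -2.07 to 1.34), miR-125b-5p by -0.019 (SE 0.84, interval -1.91 to 1.87) and miR-125a-3p by -0.49 (SE 0.46, interval -1.52 to 0.53). With limma 0 of these 3 members and 0 of 134 miRNAs (0%) passed, with an adjusted p of 0.999 each, and 0 of 134 had an unadjusted p under 0.05. All 3 members had a difference below 0, as had 75 of 134 miRNAs (56%) against 59 (44%) above 0, and none was the 1 miRNA (0.746%) with every array of 1 Gy above every array of 0.5 Gy. The intervals are wide, so that doses alike for these miRNAs are not shown. Samples with the same number deviated together between these doses, although pairing cannot be told apart from a shared slide or background. A paired limma fit of the 6 irradiated arrays alone called 3 of 40 miRNAs, none of them a member. Its SE was 0.34 for both miR-125a-5p (difference -0.36, adjusted p = 0.964) and miR-125b-5p (difference -0.019, adjusted p = 0.976). Being identical, this SE is not the spread of either miRNA alone. Without pairing, the same 6 arrays gave SEs of 0.47 and 0.41. miR-125a-3p did not pass the detection filter in that fit.

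**Figure D3:**
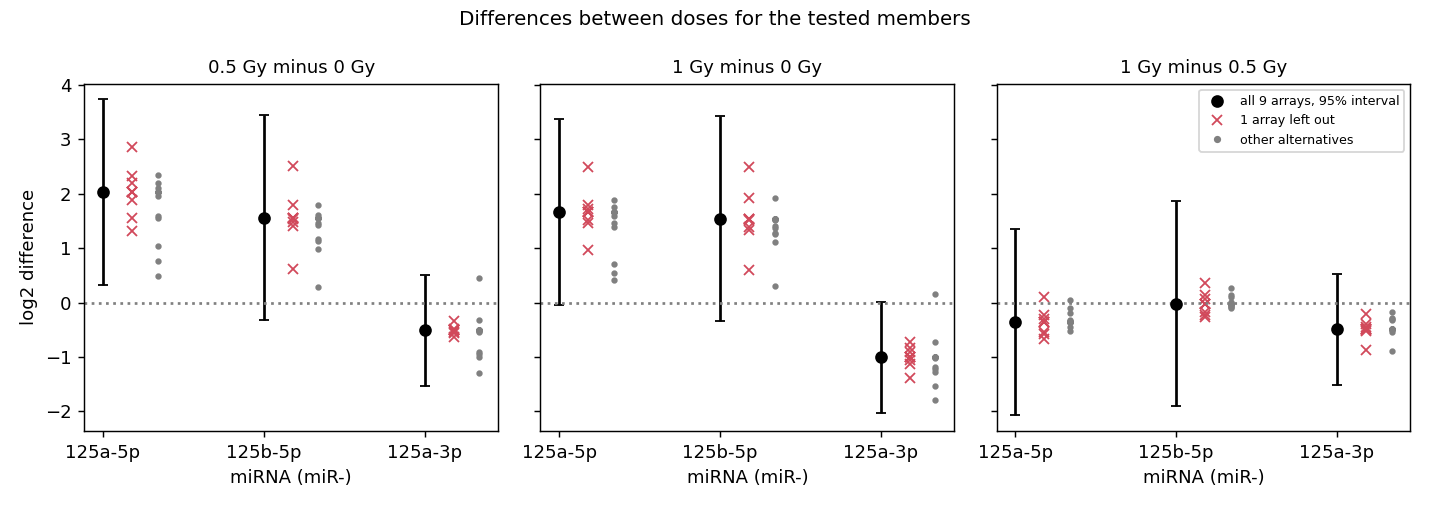
log2 differences between doses for the 3 tested members in the 3 comparisons, as the value over all 9 arrays with its 95% interval (black), with single arrays left out (crosses) and under the other alternatives (grey points). miR-125a-5p and miR-125b-5p lie above 0 in both comparisons with 0 Gy at every setting plotted, from 0.29 to 2.86 at 0.5 Gy and from 0.30 to 2.50 at 1 Gy. The 1 Gy minus 0.5 Gy differences of these 2 miRNAs lie on both sides of 0, and those of miR-125a-3p lie between -0.89 and -0.17.

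The arms of miR-125a were then compared within each array. Both arms entered by name, whether or not an array detected them. The level of an arm cannot be set against the other, since probes differ in response, but a shift of their log2 difference between doses can be read. The log2 signal of miR-125a-5p minus that of miR-125a-3p was -1.99, -1.29 and 1.23 on arrays 1, 2 and 3 of 0 Gy. It was 2.73, 1.27 and 1.55 on the arrays of 0.5 Gy and 2.96, 0.93 and 2.05 on those of 1 Gy. Arrays 1 and 2 of 0 Gy lay below all 6 irradiated arrays, and array 3 of 0 Gy lay below all of them but array 2 of 1 Gy. The shift was 2.60 between the 6 irradiated and the 3 unirradiated arrays (two-sided exact permutation p = 0.0238 over 84 arrangements, of which the smallest possible is 0.0119). These arrangements count the 6 irradiated arrays as independent, although same-numbered arrays of 0.5 and 1 Gy deviated together. This p can therefore be too small, and nothing is concluded from it. Adjusted over the 4 comparisons of the arms this p was 0.0952, which did not pass. At 0.5 Gy against 0 Gy the shift was 2.54 (exact p = 0.1, the smallest that 3 against 3 arrays allow), at 1 Gy against 0 Gy 2.66 (exact p = 0.2), and at 1 Gy against 0.5 Gy 0.13 (exact p = 0.9).

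The shift of 2.60 became 1.95 (exact permutation p = 0.0714) when array 1 of 0 Gy was removed, and 3.56 when array 3 of 0 Gy was. Without array 1 of both irradiated doses it was 2.14, and within the slide of 6 arrays 2.70. With miR-125a-3p taken from probe A_54_P2280 alone, an alternative chosen after the data were seen, it was 2.91. Without scaling it was again 2.60, scaled on all probes 1.85, after quantile normalization 1.56, from total gene signals 3.66 and after normexp 0.58. miR-125a-3p was not detected on 3 of the 6 irradiated arrays, so the difference there depends on a value near background. On array 1 of 0 Gy the miR-125a-5p value, 3.63, lay close to the floor of 3.52.

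**Figure D4:**
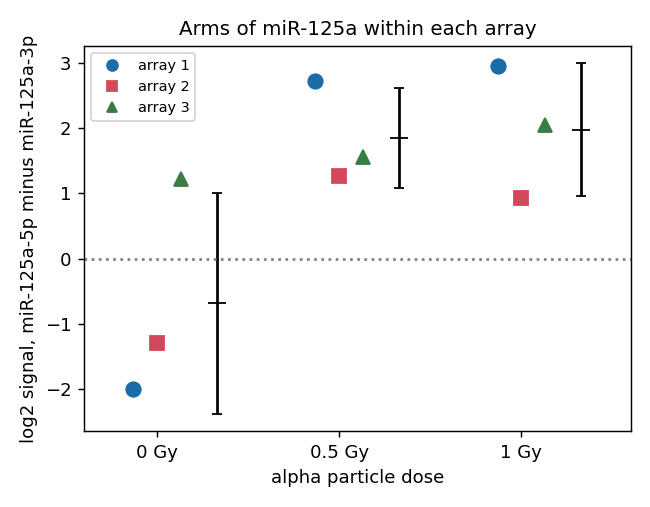
log2 signal of miR-125a-5p minus that of miR-125a-3p on each array, by dose, with the mean ± SD of 3 arrays. The 0 Gy arrays lie at -1.99, -1.29 and 1.23 and the irradiated arrays between 0.93 and 2.96.

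Relatives of the members were read in the same way. None of the 7 opposite arms of the other members (miR-125b-1-3p, miR-125b-2-3p, miR-99a-3p, miR-99b-3p, miR-100-3p, miR-10a-3p and miR-10b-3p) was detected on any array. Among the 4 let-7 miRNAs encoded beside the members, all were detected and 2 were tested, of which 0 passed at either dose. let-7c-5p is known to restrain growth genes, and a gene for it lies beside those of miR-99a and miR-125b on chromosome 16. Whether its signal came from that gene was not tested. let-7c-5p read 5.88, 7.64 and 10.40 on the arrays of 0 Gy. On those of 0.5 Gy it read 8.65, 9.72 and 10.35, and on those of 1 Gy 8.75, 9.80 and 9.90. As for miR-125b-5p, array 1 of 0 Gy was the lowest and array 3 of 0 Gy stood with the irradiated arrays. let-7e-5p, encoded between miR-99b and miR-125a on chromosome 17, was detected on 5 arrays, which were the same 5 as those of miR-99b-5p. The markers miR-21a-5p, miR-22-3p, miR-199a-5p and miR-223-3p were also detected on 5 arrays each. How many miRNAs shared the same 5 was not counted, so the overlap is not shown to be particular to this pair. let-7e-5p read 7.10 on array 3 of 0 Gy, 6.41 and 6.88 on arrays 2 and 3 of 0.5 Gy, and 6.38 and 6.61 on arrays 2 and 3 of 1 Gy.

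Of the 1881 array miRNAs, 1608 had a matched sequence and could be searched for the seeds. Among these, 3 further miRNAs had the miR-125 seed, miR-351-5p, miR-6367 and miR-6394, of which miR-351-5p alone was detected. It was detected on array 1 of 0.5 Gy (9.27) and array 1 of 1 Gy (8.10), the arrays of high background, and read at most 4.57 on the other 7, where it was not detected. let-7e-3p was detected on the same pair of arrays, at 9.35 and 8.22. Whether these readings come from the miRNAs was not tested.

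The tested miRNAs nearest to each member in pattern were found by the root mean square difference between log2 values over the 9 arrays, each centred on its own mean, among 133 others. Nearest to miR-125b-5p were let-7b-5p (0.28), let-7c-5p (0.30) and the stromal miR-214-3p (0.46), against a median of 1.50 over all 133. Nearest to miR-125a-5p were miR-193b-3p (0.39), miR-92a-3p (0.57) and miR-331-3p (0.66), against a median of 1.69, and miR-125b-5p came sixth at 0.80. miR-125a-3p lay nearest to miR-3154 (0.32), miR-7222-3p (0.38) and miR-7221-3p (0.40), which read at or near the floor on several irradiated arrays, against a median of 0.76. The values share the arrays and their scaling. The summed signal of the detected stromal markers ranged from 0 to 649 scaled units at 0.5 Gy, from 198 to 585 at 1 Gy and from 35.1 to 707 at 0 Gy. A marker not detected on an array entered this sum as 0, so the 0 is a failed detection and does not tell absence from signal within background. The stromal miR-214-3p, detected on 8 arrays, was not detected on the 0.5 Gy array with the sum of 0. It read 6.52, 8.35 and 8.47 on arrays 1, 2 and 3 of 0.5 Gy, of which array 1 had the high background. The part of the summed signal in the differences of miR-125b-5p was not tested. In such bulk RNA fewer cells of a type and less RNA per cell cannot be told apart.

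**Figure D5:**
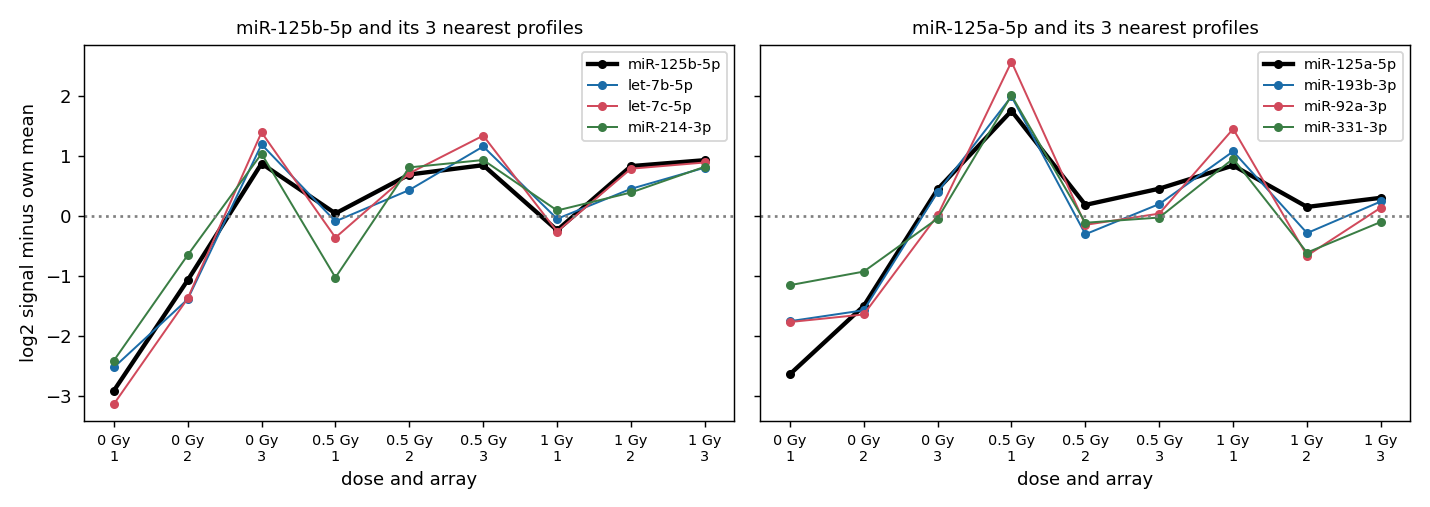
log2 signal of miR-125b-5p (left) and miR-125a-5p (right) on each array, minus its own mean over the 9 arrays, with the 3 tested miRNAs nearest in pattern; lines only join the points of a miRNA. miR-125b-5p and its neighbours have their lowest values on array 1 of 0 Gy and high values on array 3 of 0 Gy, while miR-125a-5p and its neighbours are highest on array 1 of 0.5 Gy.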

How the data were processed

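The deposited intensity values had been detrended and background-subtracted, array by array, with Agilent Feature Extraction 11.5.1.1 and carry no normalization across arrays, per the file headers. Deposited median intensities of spot and background, summed gene signals and spot marks were also read. A further table of the series was not used here, since its 9 value columns match no sample title. Sequences came from RefSeq (GRCm38.p6); the file headers name an older mouse build, so no coordinates are given.

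Control and outlier spots were removed; none was saturated. Probe values were spot means, scaled per array on the 75th percentile of 45 probes detected on all arrays. A miRNA was the sum of its probes, floored at the 1st percentile of detected values (11.5 units) and taken to log2. Differences were tested with limma 3.58.1 (R 4.3.3), two-sided, over 9 arrays and the 134 miRNAs detected on all arrays of a dose, with Benjamini-Hochberg adjustment; the fit was tested on simulated data. Of the 134, 40 were detected on all arrays of an irradiated dose. The arms of miR-125a were compared by exact permutation. With 3 arrays per dose, array number limits the precision. Same-numbered samples of 0.5 and 1 Gy deviated together (correlations over the 134 miRNAs of 0.587 to 0.837), those of 0 Gy with either dose did not (-0.128 to 0.158). The numbers were therefore taken as pairs only between 0.5 and 1 Gy. Array 2 of 0.5 Gy and array 2 of 1 Gy shared a slide with no other array, and array 2 of 0 Gy was alone on its slide. Array 1 of both irradiated doses had the high background. Paired samples and a shared batch therefore cannot be told apart.

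The members, lists, markers and tests were chosen with earlier results of these data known. Named are all 8 members, those without a test by their levels alone, then their opposite arms, neighbouring let-7 miRNAs and seed relatives, and the 3 nearest tested profiles of each tested member. Alternatives changed scaling, background correction, probe summary, filter, detection call, floor, blocks, variance model and the arrays used. Normexp, planned on mean spot intensity, was run on the median, since the files used here hold no mean column. It used an offset of 50 units.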

Additional observations from a re-analysis of the deposited data

How the results depend on the processing

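Over 9 arrays no miRNA was called in any comparison, and this held in each of the 24 alternatives for 0.5 and 1 Gy against 0 Gy, in which 0 to 18 miRNAs had an unadjusted p under 0.05. For 1 against 0.5 Gy it held in 24 of 25, the exception being the paired fit of the irradiated arrays (replicate block), added after the data were seen, with 3 calls. With the replicate number as a block over all 9 arrays, no call changed, and the shift of the miR-125a arms was again 2.60 (exact permutation p = 0.0370, the smallest possible, and 0.148 adjusted over the 4 arm comparisons). That block also ties in the 0 Gy arrays, which did not deviate together with irradiated arrays of the same number, so its p decides nothing. miR-125a-5p and miR-125b-5p kept their direction against 0 Gy in all alternatives. miR-125a-3p turned after normexp with its offset of 50 units, to 0.45 at 0.5 Gy and 0.15 at 1 Gy. The parts of the correction and of the offset in this turn were not tested.

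At 1 against 0.5 Gy, miR-125a-5p turned to 0.050 after quantile normalization and to 0.11 without array 1 of 0.5 Gy, with leave-one-out values of -0.67 to 0.11. miR-125b-5p turned to 0.0050 scaled on all probes, 0.27 after quantile normalization, 0.15 without scaling, 0.063 or 0.14 when array 2 or 3 of 0.5 Gy was removed, 0.35 when array 1 of 1 Gy was, and 0.11 when array 1 of both irradiated doses was, with leave-one-out values of -0.26 to 0.35. The shift of the arms between these doses turned to -0.027 after normexp and -0.23 with A_54_P2280 alone, and its leave-one-out values were -0.36 to 0.65, turning to -0.16 and -0.018 without array 2 or 3 of 0.5 Gy and to -0.36 without array 1 of 1 Gy. The cause of these turns was not tested.

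Scaling moved the median of all 134 miRNAs at 0.5 against 0 Gy from -0.47 to -0.66 (all probes), -0.53 (quantile) and -0.84 (none), normexp moved it to 0.32, and total gene signals to -1.01. Relative to those medians miR-125a-5p stood at 2.49, 1.41, 1.02, 2.43, 0.72 and 3.35, and miR-125b-5p at 2.03, 0.95, 1.51, 1.97, 0.85 and 2.61. Most of the 134 entered through 0 Gy alone, so those medians are no neutral base. Leaving out each array in turn moved the arm shift against 0 Gy between 1.88 and 3.49 for 0.5 Gy, between 2.01 and 3.62 for 1 Gy, and between 1.95 and 3.56 for both doses together. Signal near background limits miR-99b-5p, miR-125a-3p and the 4 undetected members. It also limits miR-125a-5p on array 1 of 0 Gy, which read 3.63 against a floor of 3.52.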
